A study of Mus musculus with 4 samples.

Results

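The circles described here are exonic circular RNAs that were read in C2C12 cells after linear RNA had been removed, and that appeared in neither library made without that step. They were chosen by their listing: an exonic circle entered when at least 1 of the 2 RPAD libraries held a back-splice read of it and both total RNA libraries held 0. This gave 705 of 4074 exonic circles, and of 69136 circles of either type. C2C12 is an established mouse myoblast line, and all 4 libraries came from cultures moved to medium with 2% horse serum for 3 to 4 days, in which myoblasts fuse into myotubes. The 2 control libraries were made from total RNA. The 2 RPAD libraries were made from RNA digested with RNase R, tailed with poly(A) and cleared of poly(A)+ RNA. Ribosomal RNA was depleted in both groups. The labels place all libraries in C2C12, although their protocol names HeLa RNA in the RNase R reaction, and this was not resolved.

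An exonic circular RNA forms by back-splicing, when the splice donor at the end of a downstream exon is joined to the acceptor at the start of an upstream exon. The product has no free end, so RNase R, an exonuclease that digests RNA from its 3' end, spares it, and poly(A) polymerase cannot tail it. Long introns on both sides and sequences in them that pair with each other are known to favour back-splicing, and many circles begin at the second exon of their gene. Several circles can arise from the same gene when a donor is joined to different acceptors or an acceptor to different donors, which is called alternative back-splicing.

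RPAD-only circles were numerous in both RPAD libraries, and few of them were shared between the libraries. RPAD library 1 listed 251 of them and RPAD library 2 listed 474, which was 50.3% (95% interval 45.8 to 54.8) and 61.0% (57.5 to 64.5) of the exonic circles of each library. The cultures were sequenced in bulk, so fewer cells with a circle and fewer copies per cell cannot be told apart. RPAD-only circles carried 15077 and 31575 reads, or 26.9% (26.6 to 27.3) and 34.4% (34.1 to 34.7) of exonic back-splice reads. Most had few reads. The median was 15 reads in RPAD 1 and 6 in RPAD 2, against 36.5 and 47 for the exonic circles of the same libraries that were also listed in total RNA. A single read supported 31 of the RPAD-only circles in RPAD 1 and 99 in RPAD 2, while 45 and 60 had at least 100 reads. The 10 most read took 35.0% and 42.2% of the reads on RPAD-only circles. Both libraries had few circles with many reads and a long tail with few, as the plot of ranked reads shows.

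**Figure D1:**
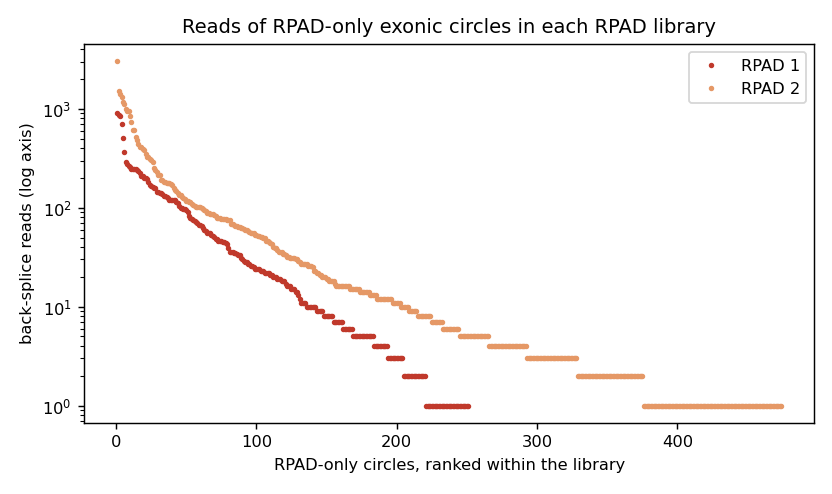
Back-splice reads (log axis) of each RPAD-only exonic circle, ranked within RPAD 1 (251 circles) and RPAD 2 (474 circles). In both libraries few circles exceed 100 reads (45 and 60) and the curves end in circles with 1 read (31 and 99).

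The 12 circles with the highest mean share of exonic RPAD reads held 34.0% of all reads on RPAD-only circles. Each of them had 0 reads in both total RNA libraries by the rule. Only 4 of the 12 were read in both RPAD libraries, 3 were in RPAD 1 alone and 5 in RPAD 2 alone. Positions are mm9 and counted from 1.

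The first of the 12 was a single exon of 1946 nt on chromosome 17, from 6137211 to 6139156 on the plus strand, exon 2 of its transcript model. It had 0 reads in RPAD 1 and 3030 in RPAD 2, where it ranked 3 among all exonic circles. It lies between introns of 30214 and 37672 nt. A circle of the same start that goes on to exon 4 of the model was also read in RPAD alone.

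The second was the 102 nt circle on chromosome 6 from 47731623 to 47731724, which covers a whole transcript of 1 exon (ENSMUST00000083011) and has no annotated intron on either side. It had 909 and 941 reads, the most even pair among the 12, and ranked 9 and 21 in the 2 libraries. As shares of exonic reads these were 1.62% and 1.02%. A back-splice as described above needs a splice site at each end, and the annotation gives none for this transcript; how its junction arose was not tested.

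Others of the 12 were multi-exon circles that 1 RPAD library held almost alone. On chromosome 12, from 87184728 to 87205559, a circle of 6 exons and 559 nt had 1 read in RPAD 1 and 1522 in RPAD 2. On chromosome 18, from 50054636 to 50094987, a circle of 12 exons and 1737 nt (exons 25 to 36) had 0 and 1426. On chromosome 5, from 64315974 to 64321774, a circle of 3 exons and 434 nt had 0 and 1324. In these 3, RPAD 2 held all reads or all but 1. RPAD 1 in turn held 868 reads of a circle of 6 exons and 697 nt on chromosome 17 (79076622 to 79100293), which had 0 in RPAD 2. It also held 837 reads of a circle of 4 exons and 3600 nt on chromosome 5 (107063850 to 107095864) and 703 of one of 4 exons and 498 nt on chromosome 11 (121464302 to 121466654), both with 0 in RPAD 2. With an equal share of exonic reads, the first of these 3 would have had 1425 reads in RPAD 2.

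The remaining members of the 12 were on chromosomes 6, 9, 8 and 4. The circle of 2 exons and 303 nt on chromosome 6 (119870128 to 119871046) had 48 and 1176 reads. The single exon of 801 nt on chromosome 9 (49314958 to 49315758) had 245 and 728. Both were read in each RPAD library, with more reads in RPAD 2. The circle of 7 exons and 843 nt on chromosome 8 (26848684 to 26860319) and the circle of 2 exons and 2559 nt on chromosome 4 (57770473 to 57869909) had 0 reads in RPAD 1 and 1110 and 1007 in RPAD 2.

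**Figure D2:**
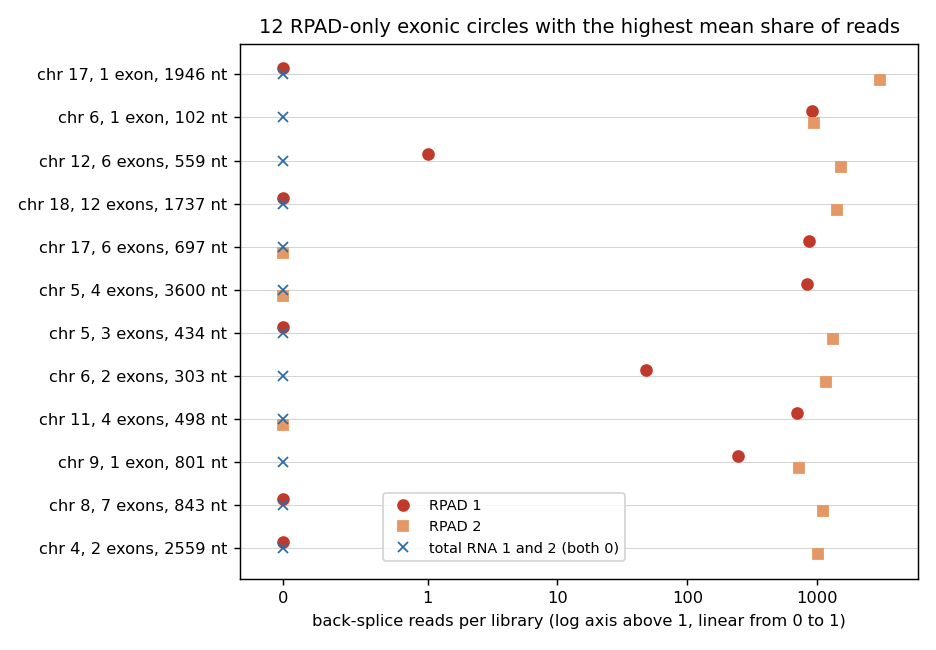
Reads in each RPAD library (log axis above 1) for the 12 RPAD-only circles with the highest mean share of exonic reads, named by chromosome, exon number and spliced length, with crosses at 0 for both total RNA libraries. In 8 of the 12 a marker of 1 RPAD library lies at 0, and only the chromosome 6 circle of 102 nt has nearly equal raw reads in both.

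Across all 705, 20 circles (2.84%, 95% interval 1.74 to 4.35) had reads in each RPAD library, 231 in RPAD 1 alone and 454 in RPAD 2 alone. Of the 450 exonic circles listed in both kinds of RNA, 101 (22.4%, 18.7 to 26.6) were in both RPAD libraries. The share of RPAD-only circles in both libraries was below that of the others in every class of 2 or more reads, from 0.690% against 8.33% with 2 to 4 reads. Within circles that reached at least 100 reads in an RPAD library, 10 of 102 RPAD-only circles (9.80%, 4.80 to 17.3) were in both, against 60 of 160 others (37.5%, 30.0 to 45.5). RPAD 1 held 45 RPAD-only circles of at least 100 reads, and RPAD 2 missed 41 of them, although an equal share of exonic reads would have given each at least 171 reads there. Of the 60 in RPAD 2, 51 had 0 in RPAD 1, where at least 61.5 reads each would have been met at an equal share. For circles also listed in total RNA, 42 of 76 and 58 of 105 were missing in the same way. Listing in RPAD and absence from total RNA chose the first set, so these shares are a description.

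The 20 circles in both RPAD libraries had 5 to 1850 reads over the 2 libraries, with a median of 132, against 8 for those in 1 library. Their median spliced length of 476.5 nt was near the 454 nt of the others, and 4 of the 20 were single exons. At least 100 reads in each library were reached by 3: the 102 nt circle of chromosome 6, the 801 nt exon of chromosome 9 and a circle of 5 exons and 832 nt on chromosome 1 (130090037 to 130118280), with 262 and 385 reads. Others with similar raw reads in both were on chromosome 1, from 10199506 to 10206640 (5 exons, 792 nt; 77 and 63 reads) and from 158369419 to 158370716 (3 exons, 207 nt; 56 and 55). As shares of exonic reads these were higher in RPAD 1, with 0.138% against 0.0686% and 0.100% against 0.0599%. A circle on chromosome 7, from 97308958 to 97345530, joined 17 exons into 1649 nt and had 43 and 61 reads. A gap of the kind seen in the 12 was also present: chromosome 11 from 20625688 to 20627642, a single exon of 1955 nt, had 126 reads in RPAD 1 and 1 in RPAD 2.

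For most of the 705 circles the depth of total RNA was too low to show whether they were scarcer there. The total RNA libraries held 31571 exonic back-splice reads together, so 0 reads allow a share of up to 0.00950% of them (3 reads). At an equal share, an RPAD circle needs 14.0 reads over both RPAD libraries to reach 3 reads in total RNA. A lower share in total RNA was therefore not detectable for the 418 circles (59.3%) with fewer reads than that. The other 287 had enough RPAD reads for this, but 0 reads in total RNA was the rule that chose them, so nothing is read from their absence there. With each RPAD library thinned to the exonic reads of the shallower total RNA library, 494 RPAD-only circles would be met on average.

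The share of RPAD circles absent from total RNA went down as reads went up. Of exonic circles with 1 read at most in an RPAD library, 126 of 143 (88.1%, 95% interval 81.6 to 92.9) were RPAD-only. The share was 80.1% with 2 to 4 reads, 64.9% with 5 to 19, 51.9% with 20 to 99, and 38.9% (33.0 to 45.1) with 100 or more, where 102 of 262 were RPAD-only. Thus circles with 1 read were mostly absent from total RNA, while of circles with at least 100 reads the larger share was present there.

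**Figure D3:**
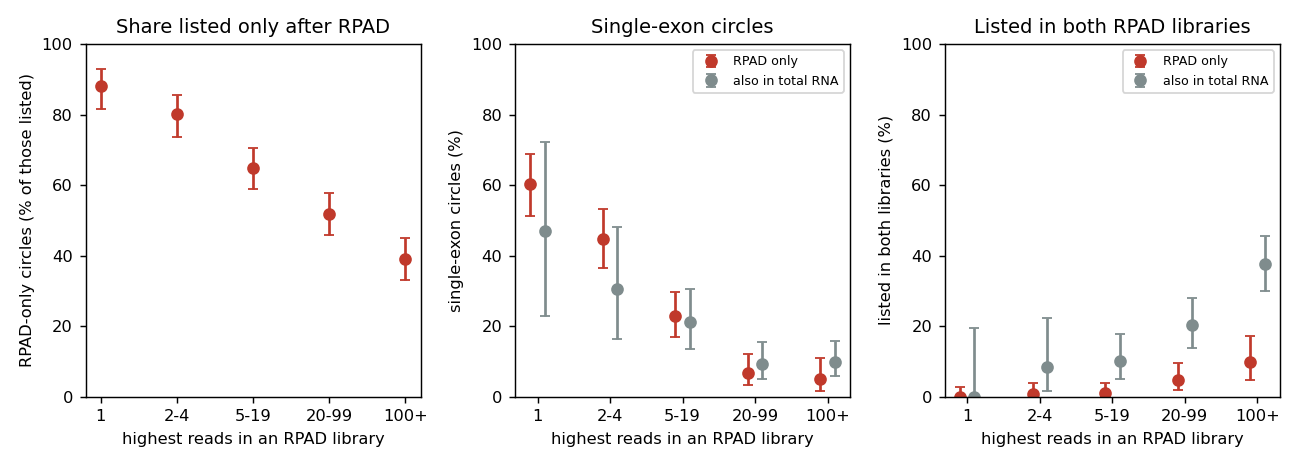
Exonic circles of the RPAD libraries by the highest reads in either library: the share that is RPAD-only, the single-exon share, and the share listed in both RPAD libraries, with exact 95% intervals over circles. The RPAD-only share goes from 88.1% at 1 read to 38.9% at 100 or more, the single-exon share of RPAD-only circles from 60.3% to 4.90%, and the share of RPAD-only circles in both libraries reaches 9.80% against 37.5% for the others.

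RPAD-only circles ranged from 1 to 76 exons and from 82 to 14073 nt, with medians of 3 exons and 454 nt. Single exons numbered 198 (28.1%, 95% interval 24.8 to 31.6), circles of 2 exons 100, of 3 exons 89, of 4 exons 82, of 5 to 9 exons 172 and of 10 or more 64. Under 200 nt there were 189 circles. Circles of 2 or more exons had a median of 678 nt and 16 reads. Single-exon circles had medians of 136.5 nt and 2 reads and took 15.6% of the reads on RPAD-only circles, of which the chromosome 17 exon and the 102 nt circle made up a large part.

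Single exons were mostly circles of few reads. Among RPAD-only circles they made up 60.3% (76 of 126) with 1 read, 44.8% with 2 to 4, 23.0% with 5 to 19, 6.71% with 20 to 99 and 4.90% (5 of 102) with 100 or more. Circles also listed in total RNA went the same way, from 47.1% (8 of 17) to 10.0% (16 of 160). The RPAD-only share was the higher one up to 19 reads, with 44.8% against 30.6% at 2 to 4 and 23.0% against 21.2% at 5 to 19. It was the lower one from 20 reads, with 6.71% against 9.42% at 20 to 99. Intervals over circles overlapped in every read class, but circles are not replicates, so this does not show that the sets were alike. Within each set the single-exon share was higher at 1 read than at 100 or more.

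The circles with the most exons lay on chromosome 2, between 76543468 and 76820604. The circle from 76685445 to 76732480 on the minus strand joined 76 exons (66 to 141 of its model) into 14073 nt and had 199 reads in RPAD 1 and 0 in RPAD 2. Those of 66 exons (76633536 to 76669931, 9624 nt) and 47 exons (76664132 to 76696044, 4707 nt) had 7 and 5 reads in RPAD 1 alone. Outside chromosome 2, the longest circle was on chromosome 3, from 36893697 to 36943754, with 30 exons, 7939 nt and 77 reads in RPAD 2 alone. The exons inside a circle are those of the annotated model, since a back-splice read shows the junction and not the whole circle.

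Compared with circles that total RNA alone listed, RPAD-only circles differed little in size. The median spliced length of RPAD-only circles was 530 nt in RPAD 1 and 421.5 nt in RPAD 2, and that of circles listed only in total RNA was 489.5 and 514 nt in the 2 total RNA libraries (exact permutation p = 1). The median exon number was 3 in all 4 libraries, and the median first exon was exon 4. Single exons made up 26.7% ± 5.14 of RPAD-only circles and 23.7% ± 1.04 of total-only circles (SD, n = 2 libraries each, exact permutation p = 0.667). The RPAD 1 value of 23.1% lay within the total-only range, so without RPAD 2 no excess was seen (-0.0680 points).

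Against circles listed in both kinds of RNA, RPAD-only circles as a whole had lower medians of length and exon number and a higher single-exon share. The median length of the shared circles was 755 and 738 nt in total RNA, above both RPAD-only values, and their median exon number was 4. Their single-exon share was 15.6% ± 0.0583 (SD, n = 2), 11.2 points lower. The values of the 2 sets did not overlap (exact permutation p = 0.33 for each measure, the smallest that 2 against 2 can give; Benjamini-Hochberg adjusted 0.33 over 9 measures). Among circles with at least 100 reads in the library, the length gap was gone in RPAD 2, where RPAD-only circles had a median of 846 nt (60 circles) and shared circles 731 nt (105). In RPAD 1 the medians were 653 nt (45) and 733.5 nt (76). The median exon number at this minimum was 4 in both sets in RPAD 1, and 5 against 4 in RPAD 2. The single-exon share was the lower one in RPAD-only circles there, with 6.67% in each library against 11.8% and 9.52%.

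RPAD-only circles lay between shorter introns than shared circles. The median upstream intron of RPAD-only circles was 5062 nt in RPAD 1 and 3536 nt in RPAD 2, and that of shared circles was 11017 and 10890 nt in total RNA (difference of means -6654.5 nt). The median downstream intron was 3736 and 2947 nt against 9671 and 8778 nt (difference -5883 nt). Neither measure overlapped between the sets (exact permutation p = 0.33, the smallest possible; adjusted 0.33). In the RPAD libraries themselves the shared circles had medians of 9011.5 and 11859 nt upstream and 8425.5 and 9673 nt downstream, so the gap was also present within each RPAD library. Total-only circles, with 4044 and 3967 nt upstream and 3342 and 3124.5 nt downstream, lay within the RPAD-only range (exact permutation p = 1 for both introns).

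The intron gap was also present among circles with at least 100 reads. With at least 100 reads in RPAD 1, RPAD-only circles had median introns of 4956.5 nt upstream and 6526 nt downstream, against 11183 and 9794 nt for shared circles. In RPAD 2 the values were 6538 and 4249.5 nt against 13449 and 8878 nt. Both introns exceeded 10000 nt in 17.8% and 15% of these RPAD-only circles and in 34.2% and 39.0% of the shared ones. The direction was thus the same in both libraries and for both introns. Reads were not matched above this minimum: RPAD-only circles had medians of 181 and 215 reads there, and shared circles 320.5 and 287. With only circles of at least 5 reads, RPAD-only circles also had lower medians than total-only circles (differences of -1946.25 nt upstream and -1708.75 nt downstream, exact permutation p = 0.33), whereas over all circles the differences were 293.5 and 108.25 nt the other way. This minimum is in raw reads and is a higher share in total RNA, with 16179 and 15392 exonic reads against 55971 and 91868 in RPAD. On ENSMUST transcripts alone, the medians of RPAD-only circles were above those of total-only circles. The differences were 1905 nt upstream and 1141.75 nt downstream (exact permutation p = 0.33). Over the 654 RPAD-only circles with an upstream intron its length ran from 77 to 289114 nt, and 70 circles had introns under 1000 nt on both sides.

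**Figure D4:**
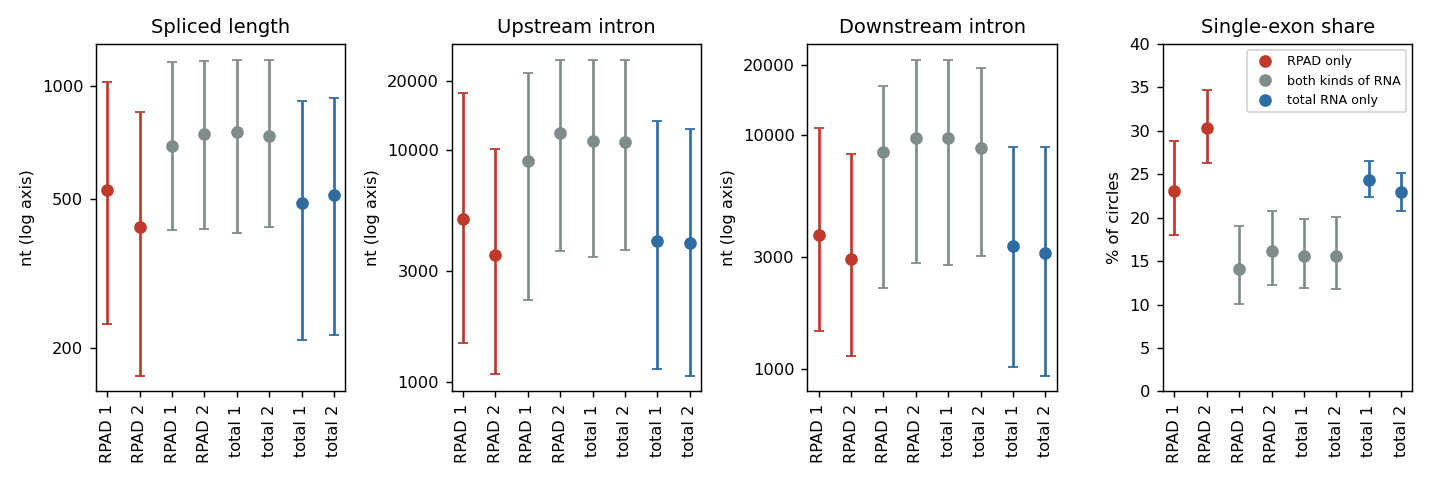
Medians of spliced length and of the introns upstream and downstream (log axes, bars for quartiles over circles) and single-exon share (bars for exact 95% intervals) in each library, for circles listed only after RPAD, in both kinds of RNA, and only in total RNA. RPAD-only circles lie near total-only circles and, for both introns, below shared circles (5062 and 3536 nt upstream against 9011.5 to 11859 nt).

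RPAD-only circles began at exon 2 in 177 cases (25.1%, 95% interval 21.9 to 28.5), at exons 3 to 9 in 313, at exons 10 to 19 in 104, at exon 20 or later in 60 and at exon 1 in 51. The share that began at exon 2 was 29.5% in RPAD 1 and 23.2% in RPAD 2, against 38.7% and 36.0% of shared circles in the same libraries. The RPAD-only share was the lower one in every read class. It lay close to that of shared circles in 3 classes, with 17.9% against 19.4% at 2 to 4 reads, 29.5% against 32.3% at 5 to 19 and 35.3% against 39.4% at 100 or more. The gap stayed wide in the others, with 16.7% against 29.4% at 1 read and 26.8% against 40.6% at 20 to 99. Total-only circles gave 24.6% and 23.0%. The exon 2 share was not among the measures tested.

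A first or last exon of the transcript model, which back-splicing as usually understood does not include, was part of 63 RPAD-only circles. These made up 8.81% ± 0.0678 of RPAD-only circles (SD, n = 2), against 5.99% ± 0.108 of total-only circles (exact permutation p = 0.33, the smallest possible; adjusted p 1 over 9 measures) and 0.469% ± 0.663 of shared circles. Of these 63, 48 lie on models named PREDICTED, and on ENSMUST transcripts alone the difference from total-only circles was -2.79 points. They were small, with a median of 198 nt and 3 reads, and 51 of the 63 were single exons.

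Within these 63, 33 circles cover a whole transcript of 1 exon, with no intron on either side. Of the 33, 27 are on PREDICTED models and 24 have no strand in the files. Their lengths ran from 102 to 545 nt with a median of 171 nt, 16 had 1 read, and 4 had more than 10. Apart from the 102 nt circle of chromosome 6, the highest was 27 reads. They made up 5.98% and 4.01% of RPAD-only circles in the 2 RPAD libraries, 0.406% and 0.533% of total-only circles, and 0 and 0.330% of shared circles in RPAD 1 and 2. None had a circle of a linked host in total RNA. Without an intron, and absent from total RNA by the rule, they could be linked there by gene name alone, so nothing is read from this.

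Transcript names were of 2 classes: 399 RPAD-only circles were on transcripts with ENSMUST names and 306 (43.4%, 95% interval 39.7 to 47.2) on PREDICTED models. The PREDICTED share was 43.8% and 43.2% in the 2 RPAD libraries and 31.7% and 30.7% for total-only circles in total RNA (exact permutation p = 0.33, the smallest possible; adjusted p 1). Circles listed in both kinds of RNA had the same excess where they were read in RPAD, with 42.3% and 41.9%, against 29.3% and 31.3% where they were read in total RNA. The PREDICTED share therefore went with the kind of library for shared circles as well. The files give a circle 1 transcript per library, and of 778 exonic circles in 2 or more libraries 433 were given different transcripts in different libraries. Different flanking introns were given to 141 of the 778 and different exon counts to 57. The intron and exon values above can therefore differ between libraries for the same circle. With at least 5 raw reads required, at unlike depth in the 2 kinds of library, the difference between RPAD-only and total-only circles was 5.94 points instead of 12.3.

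Whether the host had other circles in total RNA depended on how a host was defined. By the gene name in the files, 149 RPAD-only circles (21.1%, 95% interval 18.2 to 24.3) had a host with another exonic circle in total RNA, 63 (8.94%) had a host with intronic circles alone, and 493 (69.9%) had a host with none. Gene names stand for single transcripts and vary between libraries, as above. With transcripts joined into 1 host wherever they were listed for the same circle or the same flanking intron, the numbers were 330 (46.8%), 85 (12.1%) and 290 (41.1%). By overlap of spans on the same strand, 298 lay across a total RNA exonic circle and a further 50 across an intronic one. With none of these relations, no linked host circle, no shared end and no overlap, there were 236 circles (33.5%). As total RNA listing was part of the rule, these numbers carry no test. Linked hosts and overlap were not counted for other exonic circles, so those shares are not read as particular to RPAD-only circles. By gene name, 31.5% and 28.5% of RPAD-only circles in RPAD 1 and 2 had a host with other total RNA circles. Shared circles there gave 40.3% and 36.0%. The 33 circles of whole transcripts have no intron to be linked by, and the 24 without a strand cannot overlap a stranded circle.

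RPAD-only circles were larger and more read where the linked host had another exonic circle in total RNA. The 290 circles whose linked host had no circle in total RNA had medians of 336 nt, 2 exons and 6 reads, and 36.6% were single exons. These 290 include the 33 circles of whole transcripts, all single exons, with medians of 171 nt and 2 reads. Those 33 have no flanking intron to be linked by, and how far the difference goes back to the linking of hosts was not tested. The 330 whose host had another exonic circle in total RNA had medians of 606.5 nt, 4 exons and 12 reads, and 18.5% were single exons. The 85 of hosts with intronic circles alone had medians of 356 nt, 3 exons and 4 reads, and 36.5% were single exons, near the values of hosts with none. At least 100 reads were reached by 38 of the 290 and 54 of the 330.

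The 38 well-read circles whose linked host had no circle in total RNA were of all sizes, from 102 to 2276 nt. Their median length was 520.5 nt, and 3 were single exons. They were in RPAD 1 alone in 18 cases, in RPAD 2 alone in 17 and in both in 3. Besides those among the 12 above, they included chromosome 11 from 117562039 to 117563714 (2 exons, 122 nt; 368 reads in RPAD 1, 0 in RPAD 2) and chromosome X from 136046084 to 136066318 (5 exons, 666 nt; 256 and 0). Chromosome 15 from 57652587 to 57655306 (2 exons, 1760 nt) had 0 and 324. Absence of a linked host circle did not always mean a locus without total RNA circles. Chromosome 2 from 72778600 to 72809571 (138 and 0 reads) shared its 5' end with total RNA circles of 16 and 26 reads. Chromosome 4 from 44161897 to 44165425 (0 and 182) shared its 5' end with one of 13 and 0. Others, such as chromosome 3 from 55787672 to 55812350, overlapped a total RNA exonic circle. By the gene names as given, the 3 circles of hosts without a total RNA circle with the highest mean shares were the chromosome 17 exon, the 102 nt circle and the circle of 6 exons on chromosome 12. Linking transcripts gave those of chromosomes 17 and 12 a host with exonic circles in total RNA.

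The ends of RPAD-only circles related them to total RNA without recourse to transcript names, since ends were compared by position. Exonic circles of total RNA used both ends of 32 RPAD-only circles, each in another combination, the 5' end alone of 115 and the 3' end alone of 64. Neither end was used for 494 (70.1%, 95% interval 66.5 to 73.4). Shared ends were not counted for other exonic circles, so these shares are not read as particular to RPAD-only circles. Circles with a shared end were therefore other pairings of an end that total RNA also joined, and they held 36.8% of the reads on RPAD-only circles. Their median reads were 24.5 with both ends shared, 15 with the 5' end, 13.5 with the 3' end and 6 with neither.

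The intron next to a shared end was the longer one. RPAD-only circles that shared the 5' end had a median upstream intron of 9796 nt and a median downstream intron of 4027 nt. Those that shared the 3' end had 5456 nt upstream and 8240.5 nt downstream. With neither end shared the medians were 2773.5 and 2411.5 nt, and the median length was 347.5 nt against 706 and 630.5 nt for circles with the 5' or 3' end shared. These medians are over circles of 2 libraries and were not tested.

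Against the most read total RNA circle with the same end, RPAD-only circles were longer in some cases and shorter in more. With the 5' end shared 53 were longer and 62 shorter, and with the 3' end shared 25 were longer and 39 shorter. The circle of 4 exons and 3600 nt on chromosome 5 is an example with both ends in use: total RNA joined its 5' end to other donors with 6 and 5 reads and its 3' end to another acceptor with 110 and 39 reads, but read this pairing 0 times. Likewise the 76-exon circle of chromosome 2 ended at a donor with 365 and 608 reads in other circles of total RNA, and began at an acceptor with 1 and 35.

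**Figure D5:**
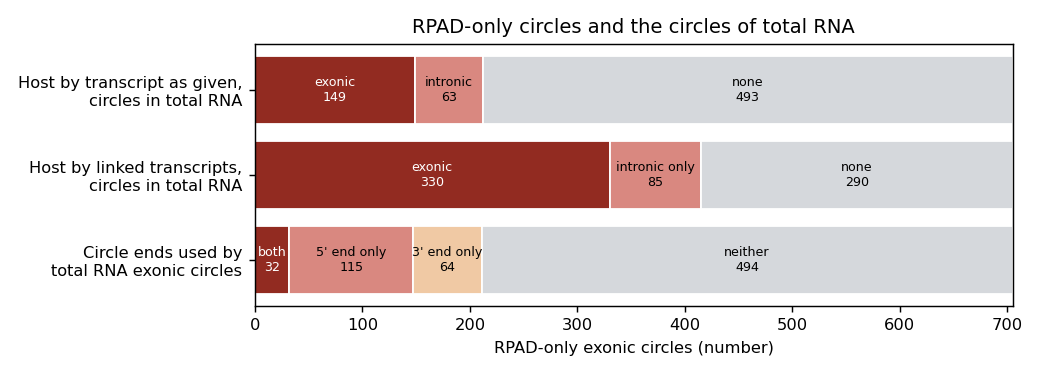
The 705 RPAD-only circles divided by which of their ends exonic circles of total RNA also use, and by the circles of their host in total RNA, with hosts as linked transcripts or as the transcript given in the files. Neither end is used for 494 circles, and linking transcripts moves circles of hosts without total RNA circles from 493 to 290.

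Most hosts gave 1 RPAD-only circle. By gene name there were 631 hosts, of which 579 had 1, 38 had 2 and 14 had 3 or more. An end was shared with another RPAD-only circle in 76 cases, 56 at the 5' end and 24 at the 3' end. The gene name with the most was that of the 76-exon circle of chromosome 2, with 9 circles of 7 to 76 exons, 5 in RPAD 1 and 4 in RPAD 2. They had 1 to 199 reads each and 315 and 373 in all, a small part of the 7309 and 7437 exonic reads of that gene name in the RPAD libraries. With linked transcripts the host had 13, of 1 to 76 exons, among them the circle of 66 exons. No circle of the 9 was in both RPAD libraries. Among them were exons 125 to 148 (76679825 to 76692524; 192 reads in RPAD 2) and exons 158 to 167 (76659173 to 76666459; 173 reads in RPAD 2).

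The next hosts by number of circles differed in reads. A chromosome 1 host (71636460 to 71697135, minus strand) gave 5 circles in RPAD 2 alone, 4 of them single exons, with 13 reads in all. Another chromosome 1 host gave 3 circles with 308 and 1246 reads: besides the 832 nt circle, one of 2 exons and 421 nt (130090037 to 130093674) had 46 and 847, and one of 5 exons and 880 nt (130083335 to 130113129) had 0 and 14. On chromosome 12, 3 circles that all begin at 99990988 held exon 3 (115 nt; 0 and 2 reads), exons 3 to 9 (0 and 27) and exons 3 to 10 (1 and 446). On chromosome 9, 3 circles between 66387559 and 66414710 had 388, 51 and 12 reads in RPAD 2 and 0 in RPAD 1, and 2 of them ended in the last exon of the model. In these last 2 hosts a single circle held most of the reads.

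The rule has an edge in each kind of RNA. On the RPAD side, the 126 members just inside had 1 read in 1 RPAD library. On the total RNA side, just outside, 54 circles had 1 read in total RNA and any reads in RPAD, with a median of 11 RPAD reads and a range from 1 to 1074. The most read were on chromosome 19 from 41620365 to 41627226 (2 exons, 421 nt; 0 and 1 read in total RNA, 0 and 1074 in RPAD) and on chromosome 1 from 130087215 to 130093674 (4 exons, 572 nt; 1 and 0, 760 and 0). They were followed by chromosome 18 from 31849052 to 31858534 (1 and 0, 0 and 452), chromosome 12 from 52860206 to 52862157 (0 and 1, 23 and 329) and chromosome 19 from 45015949 to 45035365 (1 and 0, 0 and 266). In 4 of these 5, as in most of the 12 circles above, 1 RPAD library held all the RPAD reads. With up to 1 read in total RNA allowed, 759 circles would enter.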

How the data were processed

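Back-splice junction reads were analysed in 2 total RNA and 2 RPAD libraries. The deposited files hold raw counts of back-splice reads per circle, 1 file per library, per the file headers. A deposited score from 0 to 3 per junction is not explained in the labels or headers, and 1 alternative kept score 0 alone. It was above 0 for 32.7% and 27.4% of RPAD-only circles in RPAD 1 and 2, and for 24.6% and 21.5% of shared circles there. Total-only circles gave 8.57% and 9.13% in total RNA 1 and 2. What this difference means was not tested. Cutadapt, TopHat and Cufflinks 2.2.1 and the mm9 genome are named in the submitters' processing notes, and the back-splice caller is not named there. Ribosomal RNA was depleted and cDNA was amplified by 17 cycles of PCR without molecular identifiers, per the labels' protocols, and intervals and floors therefore hold for counting error alone.

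A circle was a set of chromosome, start, end and strand, with 0 reads where a file did not list it. The RPAD libraries held 55971 and 91868 reads on exonic circles and the total RNA libraries 16179 and 15392. No normalization or low-count filter was applied, so all 705 members entered every count. The members, lists and tests were chosen with earlier results of these data known. Since listing in RPAD and in total RNA chose the members, their abundance was not tested between the 2 kinds of RNA. Features the choice did not use were summarised per library and compared by exact two-sided permutation tests over libraries, with Benjamini-Hochberg adjustment over 9 measures. The 9th, the share of hosts with other total RNA circles, draws on the total RNA lists and is given without a p. These tests cannot give a p below 0.33. Whether the 2 libraries of a kind stem from separate cultures is not in the labels, so these p-values measure only the spread between libraries, which may be technical. Named circles were the 12 with the highest mean share of exonic RPAD reads, those with at least 100 reads in both RPAD libraries, the 3 with the most exons, the 3 longest, the 3 with the highest mean share among members with at least 100 reads in a library whose host had no circle in total RNA, the 5 hosts with the most members, and the 5 circles just outside the rule with the most RPAD reads. All further circles in the text were picked with their values in view. Alternatives changed the read minimum, score, transcript class, matching of ends, depth, host definition and libraries used. The scripts were tested on simulated circles. The tools were scipy 1.17.1 with numpy 2.4.6, under Python 3.11.15, pandas 2.3.3 for tables, and matplotlib 3.10.9 for plots. Shares carry exact Clopper-Pearson 95% intervals. Transcript and gene identifiers matched 0 entries of the name tables at hand, so circles are given by position and marker genes of the labelled cell line were not checked.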

Additional observations from a re-analysis of the deposited data

How the results depend on the processing

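The number of RPAD-only circles was 434, 251 and 102 with at least 5, 20 and 100 reads, 449 on ENSMUST transcripts alone, and 251 (without RPAD 2) to 835 with 1 library left out. It was within 1.5 times of 705 under the other settings. Hosts with exonic, intronic alone and no total RNA circles numbered 330, 85 and 290 when linked, and 54, 18 and 179 with at least 20 reads. By overlap, 298 had an exonic circle. With 1 library left out they numbered 59 to 135, 20 to 59 and 172 to 656. Overlap and the allowance of 1 total RNA read were added after seeing the data.

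Of 62 alternative values for the 9 features compared between RPAD-only and total-only circles, without the replicate block, 43 had the same direction or were also 0, 13 had the opposite direction and 6 moved away from 0. Against shared circles, the differences were -1 exons, 1 in first exon number, -6654.5 nt upstream and -5883 nt downstream. With at least 5 raw reads, at unlike depth in the 2 kinds of library, the introns differed by -1946.25 and -1708.75 nt. With score 0 alone they differed by -607.75 and -205 nt, exon number by 0.5 and first exon number by 0.25. On ENSMUST transcripts the differences were 54.75 nt in length, 0.5 exons, 0.5 in first exon number, -5.08 points of single exons and -2.79 points of terminal exons. The introns differed there by 1905 nt upstream and 1141.75 nt downstream. Length was also longer by 14.5 nt without RPAD 2, and by 2 and 11.25 nt without total RNA 1 and 2, and both introns were shorter without RPAD 1 (-706.75 and -470.5 nt). With 1 library left out, which leaves values without a test, the ranges were -93.25 to 14.5 nt for length, 0 to 0.5 exons, -0.25 to 0 for first exon number, -706.75 to 886.5 nt upstream, -470.5 to 814.25 nt downstream and -0.0680 to 7.31 points of single exons. They were 1.20 to 3.23 points for terminal exons, 11.6 to 12.9 for PREDICTED transcripts and -40.7 to -37.9 for hosts with other total RNA circles (-38.5 with all libraries). That last feature draws on the total RNA lists and on gene names, which vary between libraries. For shared circles it was 40.3% and 36.0% in the RPAD libraries but 81.5% and 84.7% in total RNA. Its share thus went with the kind of library for shared circles as well. Over the tested settings no feature had a permutation p below 0.33, which 2 against 2 libraries cannot go below; the causes of these shifts were not tested.

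With the replicate number as a block, the differences were the same by construction (upstream intron 293.5 nt, terminal exons 2.83 points), and the exact sign-flip p was 0.5 at least. Deviations of same-numbered libraries correlated at 0.0156 across 4074 exonic circles, and 2 pairs are too few to tell if equal numbers pair the libraries.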

Other observations

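RPAD-only circles were spread over all chromosomes that gave exonic circles. As a share of the exonic circles of a chromosome they ranged from 11.8% on chromosome 19 (18 of 153) to 21.9% on chromosome 3 (43 of 196), and 18 of 121 were on the X chromosome. Near copies of total RNA circles were rare among them: both ends lay within 5 nt of those of a total RNA exonic circle in 3 cases and within 50 nt in 4.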
